A study of Homo sapiens with 2 samples.

Results

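The genes described are the protein-coding zinc finger genes of chromosome 19 whose symbol is ZNF and a number, in A549 cells, a line from a human lung adenocarcinoma. They were found by matching Entrez IDs to gene symbols and GRCh38 positions, and 206 of the 16399 genes listed met the rule. One more ZNF symbol on the chromosome, ZNF781, was left out because RefSeq calls it a pseudogene. The study compared cells overexpressing plakophilin 2 (PKP2), a desmosomal plaque protein, from a construct with an SFB tag with cells carrying the vector, both grown at passage 5 in medium with serum. Each group is 1 RNA-seq library of total RNA, so no difference has a replicate check, and what is compared is a pair of libraries rather than the conditions. In bulk RNA, fewer cells expressing a gene and less of its RNA per cell cannot be told apart. The stated purpose was to look for genes downstream of PKP2.

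Most zinc finger genes of this chromosome encode proteins that carry a KRAB box at the start and a long row of C2H2 fingers after it. The fingers read DNA, each contacting a few bases, and the KRAB box binds the corepressor TRIM28, which brings in the histone methyltransferase SETDB1 and heterochromatin proteins of the CBX family. Many of these proteins are known for silencing transposable elements, and the genes arose by tandem duplication, so neighbours are alike in sequence. A smaller set lacks the KRAB box and is thought to act through other partners.

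The repeat that gives the family its name can be seen in the coding sequences, given here for genes that the results turn on. The first finger with a standard linker is given for the member furthest apart between the libraries (ZNF548), the most abundant member (ZNF146) and the most abundant of the GC-rich members without a KRAB motif (ZNF787). The sequences come from GENCODE release 29, run 5′ to 3′ on the coding strand and have the linker to the next finger in capitals.
ZNF548: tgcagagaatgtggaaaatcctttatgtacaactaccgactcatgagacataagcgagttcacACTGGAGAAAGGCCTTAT
ZNF146: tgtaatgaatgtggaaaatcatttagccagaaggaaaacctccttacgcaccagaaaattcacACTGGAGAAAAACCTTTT
ZNF787: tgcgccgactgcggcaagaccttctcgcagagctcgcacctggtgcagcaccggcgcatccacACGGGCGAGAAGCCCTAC
ZNF548 lies on the plus strand of chromosome 19 at chr19:57389850-57402992, ZNF146 on the plus strand at chr19:36214602-36238774, and ZNF787 on the minus strand at chr19:56087366-56121280. The 3 stretches cover 81 bases each, from coding positions 799, 220 and 286. A second set shows a near-identical pair, ZNF417 and ZNF587, over the first 150 coding bases, which hold the start of the KRAB box. Capitals mark the 2 bases at which the copies differ.
ZNF417: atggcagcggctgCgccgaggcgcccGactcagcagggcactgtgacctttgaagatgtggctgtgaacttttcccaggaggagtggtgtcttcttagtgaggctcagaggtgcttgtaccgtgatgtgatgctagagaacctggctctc
ZNF587: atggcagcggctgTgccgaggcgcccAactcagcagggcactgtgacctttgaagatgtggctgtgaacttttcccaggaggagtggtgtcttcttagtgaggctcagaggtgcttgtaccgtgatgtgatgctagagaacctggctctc
Over their whole coding sequences, 1725 bases each, ZNF417 (chr19:57900296-57916610, minus strand) and ZNF587 (chr19:57849857-57865112, plus strand) had 16 differing bases, an identity of 99.1%.

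The libraries held 16808842 estimated counts for PKP2 and 16996976 for vector. Levels are given as CPM, counts per 1000000 counts of the library, and a difference is always PKP2 minus vector on the scale log2(CPM + 1). The targeted gene PKP2 stood at 268 CPM in the PKP2 library and 27.3 CPM in the vector library. The 8 markers fixed for A549 epithelium were all above 1 CPM, between 1.37 and 5416 CPM in the PKP2 library and between 1.47 and 5339 CPM in the vector library. Of the markers of other cell types that were listed, CD14 for blood (3.27 and 3.35 CPM in the PKP2 and vector libraries) and COL1A1 for fibroblasts (10.4 and 8.12 CPM) were at 1 CPM or more. EPCAM, the lowest of the 8 epithelial markers at 1.37 and 1.47 CPM in the same libraries, lay below both. The endothelial markers summed to 0.773 CPM in the PKP2 library and 0.177 CPM in the vector library.

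As a family, the chromosome 19 zinc finger genes were at nearly the same level in both libraries. Of the 206 members, 163 were expressed, meaning 1 CPM or more in at least 1 library. By the same limit 12820 of all 16399 listed genes were expressed. Together the expressed members came to 1883 CPM in the PKP2 library and 1891 CPM in the vector library, a ratio of 0.996 with an exact 95% Clopper-Pearson counting interval of 0.980 to 1.01. The median difference was -0.00014 for the expressed members and -0.0016 for all 12820 expressed genes. On single members, 81 were higher and 82 lower in the PKP2 library, where 49.7% of all expressed genes were higher and 50.3% lower. The quartiles of the members' differences were -0.13 and 0.17, and the range was -0.58 to 0.61.

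Zinc finger genes are low in these cells, which limits how small a difference could be seen. The median level was 6.51 CPM for the expressed members, against 29.7 CPM for all expressed genes. Per kilobase of the longest transcript the members had a median of 1.61 CPM in the PKP2 library and 1.58 CPM in the vector library, against 7.76 and 8.02 CPM for all expressed genes. The 43 members below 1 CPM in both libraries summed to 8.50 CPM in the PKP2 library and 8.60 CPM in the vector library. Of all members, 9 had a count of 0 in the PKP2 library and 7 in the vector library. For such a gene a count of 0 allows up to 3 counts, and each of them had at most 4 counts in the other library, so no fold is given.

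**Figure D1:**
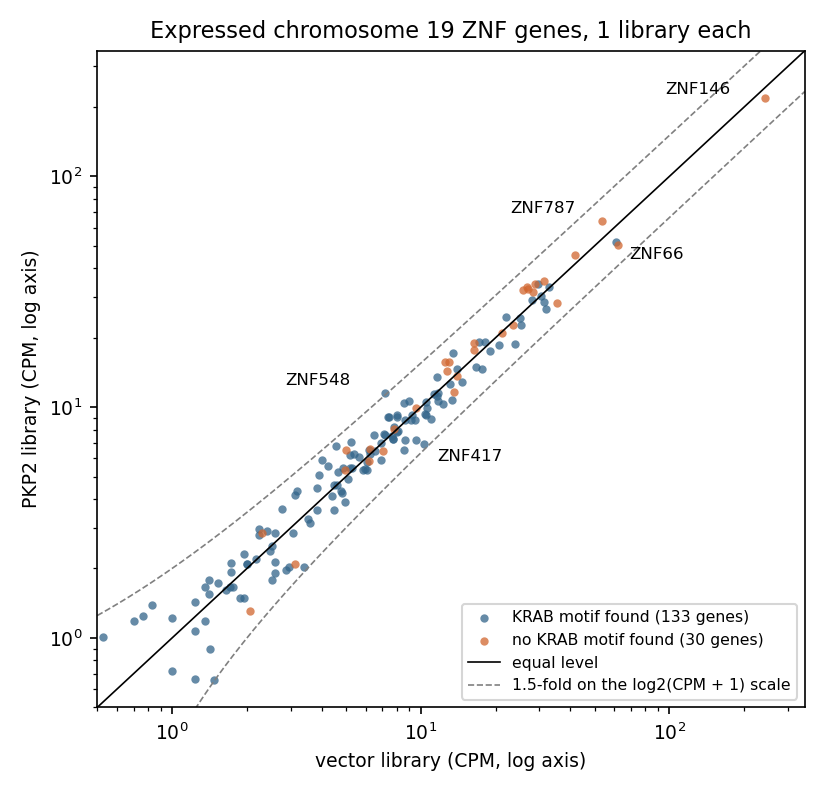
Level of the 163 expressed chromosome 19 zinc finger genes in the PKP2 library (vertical, CPM, log axis) and the vector library (horizontal, CPM, log axis), 1 point per gene, coloured by whether a KRAB motif was found. The points lie along the line of equal level, and on the log2(CPM + 1) scale of the dashed 1.5-fold lines, which bend away at low levels, ZNF548 is the only one outside them.

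One member passed a 1.5-fold difference on the log2(CPM + 1) scale, which shrinks the fold of low genes, whereas folds and ratios given for single genes are plain ratios of CPM. ZNF548, a KRAB gene with 11 fingers, had 11.5 CPM in the PKP2 library and 7.18 CPM in the vector library, a ratio of 1.60 (1.27 to 2.02) and a difference of 0.61. It is 1 of 163 expressed members (0.733% of all expressed genes were at least 1.5-fold higher), and on the same scale no member was at least 1.5-fold lower (0.788% of all expressed genes). The KRAB gene ZNF573 came closest on the lower side, at 0.654 and 1.47 CPM in the PKP2 and vector libraries and a difference of -0.58, from 11 and 25 counts, and its plain ratio was 2.25-fold lower (1.07 to 5.06). No member reached 2-fold on the log2(CPM + 1) scale, where 0.0858% of all expressed genes were higher and 0.101% lower by that much. By the plain ratio of CPM, 5 members were at least 1.5-fold higher and 5 at least 1.5-fold lower, against 2.15% and 1.83% of all expressed genes. By the same ratio 0 members were at least 2-fold higher and 1, ZNF573, at least 2-fold lower, against 0.577% and 0.429% of all expressed genes. Apart from ZNF548 these 10 members had mean levels under 3 CPM, and of the 9 only ZNF573 and ZNF772 had an interval off 1. Only ZNF548, ZNF575 and ZNF772 of the 10 reached 1 CPM in both libraries. The others, ZNF573 among them, passed that limit only through the library where they were higher. The limit thus favoured their differences. ZNF548 had a fractional count (193.01 in the PKP2 library), and 10.2% of its 50-base words occur in another annotated gene, so its count is uncertain. With a pseudocount of 0.1, which lets low counts weigh more, 5 members were past 1.5-fold on each side, and with a pseudocount of 5 none was.

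Of the expressed members, 26 had a counting interval that left out 1, among them ZNF573, at 1 CPM or more only in the vector library. The ratio's interval lay above 1 for 13 and below 1 for 13 of the 163, or 7.98% each, against 16.3% above and 19.8% below among all expressed genes. Without the members that share sequence or exons with another gene it was 9 above and 3 below of 115. Among all genes these shares also fell with the level. At a mean level of at least 20 CPM, 6 of 24 members lay above and 6 below, against 21.4% and 27.5% of all expressed genes at that level. Between 5 and 10 CPM it was 3 and 3 of 51 members, against 9.39% and 7.61%, and between 1 and 5 CPM it was 1 and 2 of 58, against 5.60% and 4.42%. In the band of 20 CPM or more the SD of the difference was 0.21 over members and 0.19 over other genes, where counting error alone gives 0.086 and 0.068.

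At a mean level of at least 5 CPM, the KRAB members with the largest positive differences lay in 3 gene clusters. After ZNF548, ZNF155 had 6.78 CPM in the PKP2 library and 4.56 CPM in the vector library, a ratio of 1.49 (1.10 to 1.997), with a fractional count and 41.4% of its exonic bases under exons of a gene on the other strand. ZNF615 had 7.08 CPM in the PKP2 library and 5.24 CPM in the vector library, a ratio of 1.35 (1.02 to 1.80). ZNF71 had 17.1 CPM in the PKP2 library and 13.5 CPM in the vector library, a ratio of 1.27 (1.07 to 1.52). These 4 KRAB genes were higher in the PKP2 library both with and without the length and GC trend described below. They were picked for their differences, which favours keeping the sign.

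Lower in the PKP2 library at that mean level was a group of KRAB genes that includes the pair printed above. ZNF417 had 6.89 CPM in the PKP2 library and 10.3 CPM in the vector library, 1.498-fold lower (1.18 to 1.91). Its near copy ZNF587 had 26.7 CPM in the PKP2 library and 31.9 CPM in the vector library, 1.197-fold lower (1.05 to 1.36). Both had fractional counts, and 40.1% of the 50-base words of ZNF417 occur in another gene, ZNF587 most often. The fractions of the pair added up to whole numbers, 564 counts in the PKP2 library and 718 in the vector library, so the sum does not depend on how reads were divided between these copies. Summed, the pair was 1.26-fold lower (1.13 to 1.41). The sum does not settle reads from the other strand, whose exons cover 33.3% of the exonic bases of ZNF587, because the strand setting is not given. ZNF587 supplied most counts of the pair. Once transcript length and GC content were allowed for, ZNF587 lay at -0.12 instead of -0.25, and ZNF417 at -0.50 instead of -0.52.

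Further KRAB genes were among the largest negative differences at that mean level. ZNF607 had 7.20 CPM in the PKP2 library and 9.59 CPM in the vector library, 1.33-fold lower (1.05 to 1.70). ZNF552 with a fractional count was 1.31-fold lower (1.01 to 1.69), and ZNF562, also fractional, was 1.27-fold lower (1.09 to 1.48). ZNF749 was 1.25-fold lower (1.02 to 1.53). ZNF569, at 8.86 CPM in the PKP2 library and 11.0 CPM in the vector library, had an interval of 0.995 to 1.55 for its fold, so it was not detectably different at this depth.

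**Figure D2:**
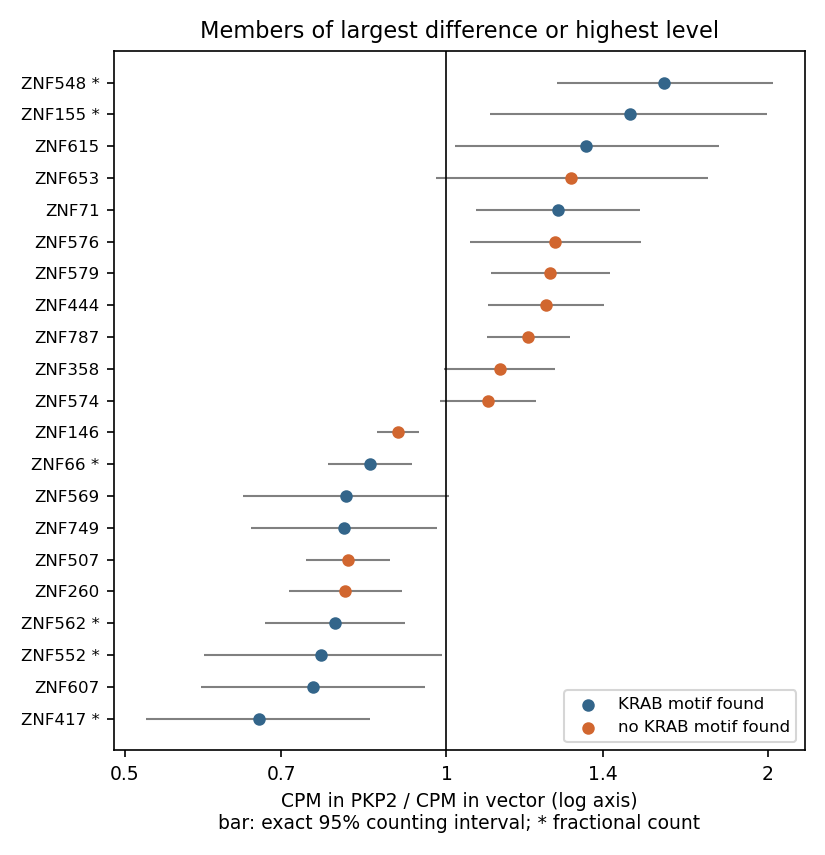
Ratio of CPM in the PKP2 library to CPM in the vector library (horizontal, log axis) for the 21 members of largest difference (mean level at least 5 CPM) or highest level; bars are exact 95% counting intervals and a star marks a fractional count. ZNF548 is highest at 1.60 and ZNF417 lowest at 0.667, and the intervals of ZNF653, ZNF358, ZNF574 and ZNF569 include 1.

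The most abundant member, ZNF146, encodes a protein made almost wholly of fingers and has no KRAB box. It had 219 CPM in the PKP2 library and 243 CPM in the vector library, 1.11-fold lower (1.06 to 1.16), and per kilobase 58.0 and 64.3 CPM in the same libraries. It alone held 3683 of the 31649 counts of the expressed members in the PKP2 library and 4133 of 32143 in the vector library. Without it the summed ratio of the family was 1.01 (0.993 to 1.03), instead of 0.996. ZNF507, also among the 6 most abundant, had 50.4 CPM in the PKP2 library and 62.4 CPM in the vector library, 1.24-fold lower (1.13 to 1.35). ZNF66, a KRAB gene with a fractional count, had 51.8 CPM in the PKP2 library and 61.1 CPM in the vector library, 1.18-fold lower (1.08 to 1.29). ZNF260, without a KRAB motif, was 1.24-fold lower (1.10 to 1.41). The transcripts of these 4 genes have a GC content of 37.3% in ZNF260 up to 41.4% in ZNF146.

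Among the genes named for their level or difference, 7 members without a KRAB motif were on the higher side. ZNF787 had 64.0 CPM in the PKP2 library and 53.6 CPM in the vector library, a ratio of 1.19 (1.09 to 1.30). ZNF579 had 32.2 CPM in the PKP2 library and 25.8 CPM in the vector library, a ratio of 1.25 (1.10 to 1.42). ZNF444, in which a SCAN dimerisation motif was found, had a ratio of 1.24 (1.09 to 1.41), and ZNF576 one of 1.26 (1.05 to 1.52). ZNF653 at 1.31 (0.977 to 1.76), ZNF574 at 1.09 (0.986 to 1.21) and ZNF358 at 1.12 (0.996 to 1.26) had intervals that include 1. Transcripts of these 7 genes ranged from 51.6% GC in ZNF576 to 70.3% in ZNF787. Abundant KRAB members also stood higher, such as ZNF875, at 34.1 CPM in the PKP2 library and 29.5 CPM in the vector library.

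The rest of the 26 members with an interval off 1 were chosen for mention after their values were seen. On the higher side ZNF627 had 5.89 CPM in the PKP2 library and 4.001 CPM in the vector library, a ratio of 1.47 (1.07 to 2.04). ZNF875 at 1.16 (1.02 to 1.31), ZNF428 at 1.19 (1.06 to 1.35), ZNF628 at 1.203 (1.00 to 1.45) and ZNF580 at 1.196 (1.05 to 1.36) differed by less. On the lower side ZNF772 had 2.02 CPM in the PKP2 library and 3.40 CPM in the vector library, 1.68-fold lower (1.09 to 2.66). ZNF776 had 14.6 CPM in the PKP2 library and 17.7 CPM in the vector library, 1.21-fold lower (1.02 to 1.44).

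Split by the KRAB box, members without it had the higher median, members with it lay near 0, and the classes also differed in base composition. A KRAB motif was found in 133 of the 163 expressed members, whose median difference was -0.01, with 62 higher and 71 lower. The 30 members without one had a median of 0.10, with 19 higher and 11 lower. Among all expressed genes the median was -0.0016, with 49.7% higher and 50.3% lower. Intervals above 1 were found for 6 of the 133 and 7 of the 30, and intervals below 1 for 10 of the 133 and 3 of the 30, while the median level was 5.71 CPM with and 15.7 CPM without the motif. Among all expressed genes, 9.39% lay above and 7.61% below at 5 to 10 CPM, and 10.4% and 11.1% at 10 to 20 CPM. The median GC content was 42.5% with and 60.8% without the motif, and the median transcript length 4186 and 3533 bases. Of the 20 members without a KRAB motif in the upper 2 of 5 equal bins of all genes by GC content, 17 were higher and 3 lower in the PKP2 library (median 0.15). Of the 10 in the lower 3 bins, 2 were higher and 8 lower (median -0.13). Genes outside the family had medians of -0.12, -0.05 and -0.01 in the lower 3 bins and 0.05 and 0.09 in the upper 2. After allowance for transcript length and GC content, 11 of the 20 and 4 of the 10 were above 0, with medians of 0.05 and -0.06. KRAB members of the lower 3 bins numbered 131 and had a median of -0.01.

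Across all genes, the libraries differed along transcript length and GC content. From the shortest to the longest of 5 equal bins of expressed genes, the median of the genes outside the family was 0.13, 0.05, -0.01, -0.06 and -0.15. Over the same bins the chromosome 19 zinc finger genes had medians of 0.13, 0.11, -0.05, -0.01 and -0.03, from 14, 36, 48, 42 and 23 members. By GC content, from low to high, the other genes had medians of -0.12, -0.05, -0.01, 0.05 and 0.09. The members had -0.06, -0.04, 0.07, 0.30 and 0.15, from 48, 59, 34, 3 and 19 genes.

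The members ran the same way along GC content as the other genes, whereas in their 2 longest bins they lay nearer to 0 than other genes of that length. Across genes, which are not independent replicates and share the same 2 libraries, Spearman's rho of the difference with length was -0.17 over the 163 members and -0.47 over 12508 other genes. At 5 to 20 CPM, where counting error is alike, it was -0.10 over 77 members and -0.36 over 2898 other genes. With GC content it was 0.27 and 0.34 at that level.

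**Figure D3:**
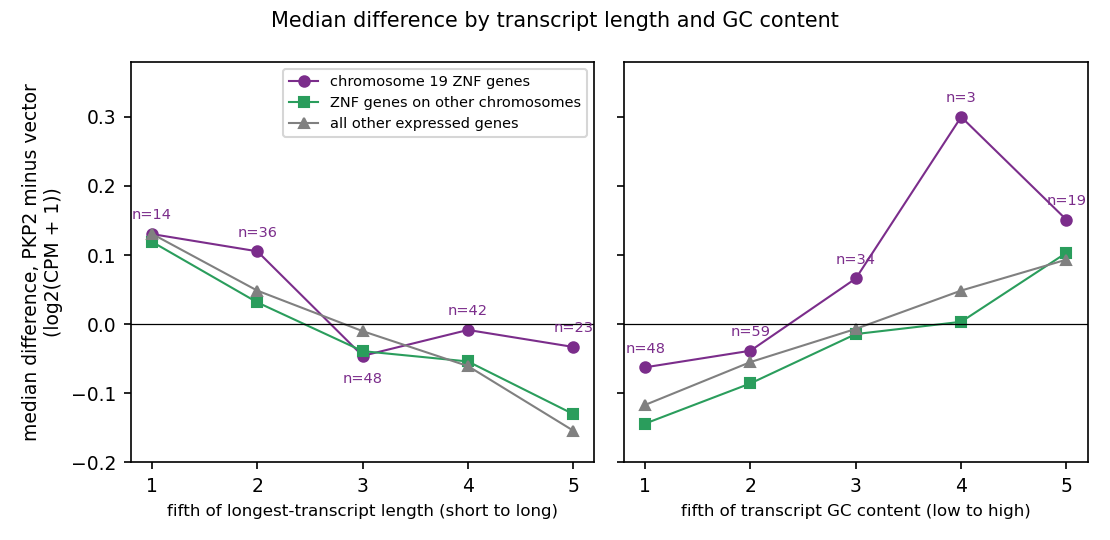
Median difference (PKP2 minus vector, log2(CPM + 1)) by longest-transcript length (left) and transcript GC content (right), each in 5 equal bins of expressed genes, for chromosome 19 zinc finger genes, ZNF genes on other chromosomes and all other expressed genes; n counts the chromosome 19 members in each bin. In the longest bin the members' median is -0.03, against -0.13 for ZNF genes elsewhere and -0.15 for the other genes, and the members' point in the second highest GC bin rests on 3 genes.

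Removing a lowess trend on length and GC moved the family to slightly positive values. With the trend removed the members' median was 0.05, and 96 of 163 were above 0, against 49.0% of all expressed genes with a length record. The trend itself had a median of -0.06 over the members. The 133 KRAB members then had a median of 0.05 and the 30 others 0.00, so the order of these classes turned round. ZNF548 stayed the 1 member at least 1.5-fold higher, at 0.70 (0.568% of all expressed genes), and none was 1.5-fold lower (0.600%). All 13 members with an interval above 1 kept a positive value and all 13 with an interval below 1 a negative one. These members were picked by the same counts, which favours keeping the sign, so this is no separate check. Of the genes named, ZNF787 lay at 0.06 instead of 0.25, ZNF507 at -0.12 instead of -0.30, ZNF562 at -0.12 instead of -0.33 and ZNF358 at -0.02 instead of 0.16.

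Zinc finger genes elsewhere in the genome had a slightly lower median, with no test between the sets. The 206 expressed ZNF genes on other chromosomes had a median of -0.03 and a summed ratio of 0.958 (0.949 to 0.968), with 87 higher and 119 lower. Their transcripts are alike in length, with medians of 4046 bases there and 4061 bases on chromosome 19, and their GC content is 45.8% against 43.1%. With the trend removed their median was 0.00 and 105 of 206 were above 0. Set against the median of other genes in the same bin of length and of GC content, 102 of 163 chromosome 19 members were above it, with a median of 0.06, and 104 of 206 ZNF genes elsewhere, with a median of 0.00. The 707 other expressed genes of chromosome 19 were mostly higher in the PKP2 library, 551 against 156, with a median of 0.11 and a GC content of 60.3%, and with the trend removed they had a median of 0.02.

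Along the chromosome, the members fall into 15 groups separated by gaps of over 1000000 bases, and 8 of these have 5 or more expressed members. The share of members under the expression limit differed between these clusters. Over all clusters 163 of 206 members were expressed, beside 12820 of all 16399 listed genes. In the cluster from ZNF101 to ZNF254 (19668796 to 24129961, GRCh38), next to the centromere on the short arm, 15 of 27 listed members were below 1 CPM in both libraries. In the cluster from ZNF175 to ZNF331 (51571298 to 53580269) it was 16 of 32. In the cluster from ZNF628 to ZNF446 (55476332 to 58481230), near the end of the long arm, it was 1 of 54, and in that from ZNF575 to ZNF296 (43525497 to 45076588) 1 of 24. Every listed member had a count in at least 1 library, and how genes came to be listed is not given, so these are shares of listed members.

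The median difference of the 8 clusters ran from -0.06 to 0.05, inside the quartiles of the family. The ZNF628 to ZNF446 cluster, with 53 expressed members, had a median of 0.05 and 603 CPM in the PKP2 library against 569 CPM in the vector library, a ratio of 1.06 (1.03 to 1.09). Of these 53 members, 28 were higher and 25 lower, where 49.7% of all expressed genes were higher. Without ZNF548 the ratio was 1.05 (1.02 to 1.08). The sum includes GC-rich members without a KRAB motif, such as ZNF787 and ZNF579, and the ratio without them was not computed. This cluster holds ZNF548 at 0.61 as well as ZNF772 at -0.54 and ZNF417 at -0.52, and also ZNF749 and ZNF552 on the lower side. The cluster from ZNF565 to ZNF573 had 384 CPM in the PKP2 library and 411 CPM in the vector library, a ratio of 0.933 (0.902 to 0.965), but without ZNF146 this was 0.979 (0.929 to 1.03). The ZNF101 to ZNF254 cluster had 113 CPM in the PKP2 library and 126 CPM in the vector library, a ratio of 0.895 (0.841 to 0.952), and without ZNF66 it was 0.938 (0.861 to 1.02). Both lower sums held their interval below 1 only with 1 abundant gene each included. With the trend removed the cluster medians ran from -0.01 to 0.11, the highest in the ZNF175 to ZNF331 cluster. By position the first expressed member was ZNF554, at 1.22 CPM in the PKP2 library and 1.00 CPM in the vector library, and the last ZNF446, at 14.3 and 12.8 CPM in the same order.

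**Figure D4:**
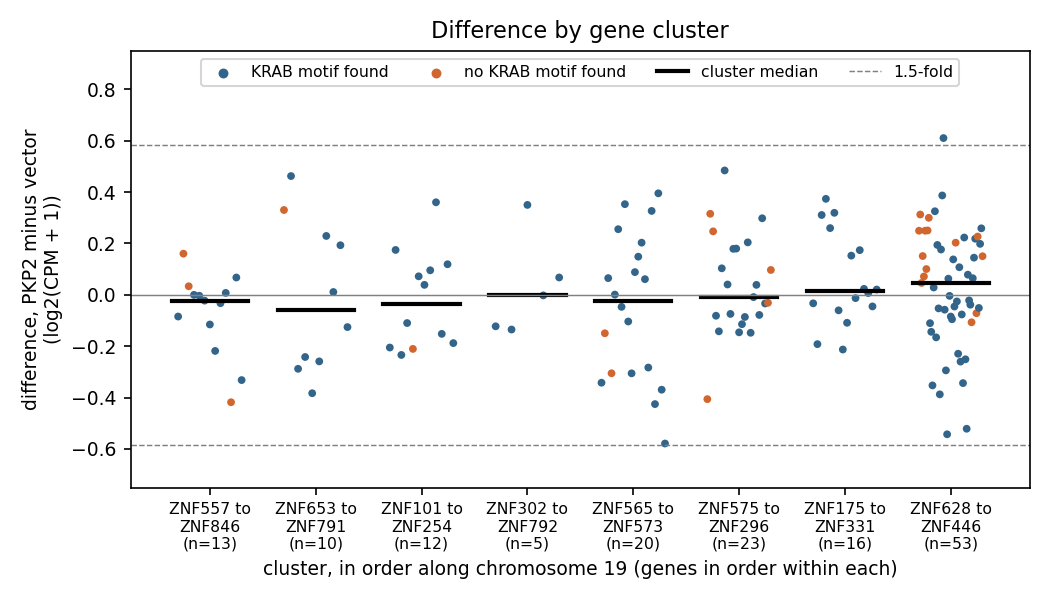
Difference (PKP2 minus vector, log2(CPM + 1)) of each expressed member in the 8 clusters with 5 or more expressed members, in order along chromosome 19, coloured by whether a KRAB motif was found; black bars are cluster medians and dashed lines mark 1.5-fold. Cluster medians lie between -0.06 and 0.05, and the last cluster holds ZNF548 at 0.61.

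The median difference fell over 3 groups of rising finger number, but this order was not kept with the length and GC trend removed. Spearman's rho of the difference with the number of fingers was -0.09 over the 163 members. Members had 0 to 36 fingers by the spacing pattern, with a median of 12. The 17 expressed members with up to 6 fingers had a median difference of 0.10, the 57 with 7 to 11 fingers 0.04 and the 89 with 12 or more -0.03. In the same order 13, 32 and 36 of them were higher in the PKP2 library, where 49.7% of all expressed genes were. The few-finger genes are short and GC-rich, with medians of 2300 bases and 59.6% GC, and with the trend removed the 3 medians were -0.08, 0.09 and 0.03.

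Members known to bind or repress retroelements were mostly low in these cells, like the family as a whole. The 4 that were expressed had a median level of 7.43 CPM, against 6.51 CPM for all expressed members. ZNF91, which represses SVA elements, had 0.654 CPM in the PKP2 library and 0.648 CPM in the vector library. ZNF649, which binds LINE elements, had 0.297 CPM in the PKP2 library and 0.353 CPM in the vector library, so both were below the expression limit. ZNF611, which also binds SVA elements, had 2.50 CPM in the PKP2 library and 2.53 CPM in the vector library, a ratio of 0.988 (0.630 to 1.55). ZNF765, which binds LINE elements, had 6.27 CPM in the PKP2 library and 6.23 CPM in the vector library, a ratio of 1.01 (0.757 to 1.32), with a fractional count. ZNF417 and ZNF587, which bind HERV-K elements, were the lower pair described above. The 4 expressed genes had a median of -0.13, which was -0.020 with the trend removed, and 2 of the 4 are the near-identical pair. Because 3 of the 4 had fractional counts, the value without fractional counts, -0.013, is that of ZNF611 alone. ZNF93 and ZNF808 were not analysed here. ZNF274, which directs SETDB1 to zinc finger gene clusters, had 29.2 CPM in the PKP2 library and 27.9 CPM in the vector library, a ratio of 1.05 (0.921 to 1.19). ZNF473, a histone pre-messenger RNA processing factor in which no KRAB motif was found, had 20.9 CPM in the PKP2 library and 21.2 CPM in the vector library, a ratio of 0.986 (0.849 to 1.15).

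The partners through which KRAB proteins act were centred near 0 as well. Of 35 expressed members of a list of 36 such genes, 8 had an interval above 1 and 10 below 1, none was past 1.5-fold, and the median was 0.0018. Their median level was 76.7 CPM, and among all expressed genes at 20 CPM or more 21.4% lay above 1 and 27.5% below, against 22.9% and 28.6% of this list. TRIM28, the corepressor, had 780 CPM in the PKP2 library and 735 CPM in the vector library, a ratio of 1.06 (1.04 to 1.09), and lay at -0.02 instead of 0.09 with the trend removed. SETDB1 had 39.7 CPM in the PKP2 library and 36.4 CPM in the vector library, a ratio of 1.09 (0.975 to 1.22). RESF1, a SETDB1-binding protein, was furthest apart, 1.34-fold lower (1.18 to 1.53) at 24.0 CPM in the PKP2 library and 32.2 CPM in the vector library. TASOR, a scaffold of the HUSH silencing complex with a fractional count, was 1.22-fold lower (1.12 to 1.33), at 57.2 CPM in the PKP2 library and 70.0 CPM in the vector library. ATRX, a chromatin remodeller, was 1.21-fold lower (1.12 to 1.30), at 77.3 CPM in the PKP2 library and 93.4 CPM in the vector library. Without the trend these 3 lay at -0.25, -0.10 and -0.03 instead of -0.41, -0.29 and -0.27.

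Shared sequence limits what single members can show. Of the 163 expressed members, 36 had a fractional count, or 22.1%, against 18.6% of all expressed genes. At least 10% of 50-base words or of exonic bases were shared with another gene in 48 members, whose median difference was -0.06, against 0.02 for the 115 others. Of these 48, 4 had an interval above 1 and 10 below 1, against 9 and 3 of the 115 others. The summed ratio was 0.948 (0.925 to 0.972) over the 48 and 1.03 (1.01 to 1.05) over the 115, and what part the division of shared reads has in this was not tested. ZNF146 is among the 48 only because exons on the other strand cover 10.8% of its exonic bases. It supplied 3683 of the 12036 counts of the 48 in the PKP2 library and 4133 of 12832 in the vector library. The ratio of the 48 without ZNF146 was not computed. Among the genes named, ZNF548, ZNF155, ZNF653, ZNF358, ZNF146, ZNF66, ZNF417, ZNF587, ZNF607, ZNF552, ZNF562, ZNF573, ZNF749, ZNF611, ZNF428, ZNF580, ZNF776 and ZNF446 are in the sharing set. The strand setting of the counting is not given, so reads of members that overlap a gene on the other strand cannot be told apart.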

How the data were processed

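RNA was sequenced from A549 cells, 1 library from cells overexpressing PKP2 and 1 from vector cells, made from Trizol-extracted total RNA with an Illumina TruSeq kit, per the labels' protocols. The deposited values are estimated counts per Entrez gene, called counts in the file headers and not scaled to a common depth. The tools listed, per the submitters' processing notes, are HISAT2 2.0.4, Bowtie2 and RSEM 1.2.12, with build GRCh38.p12. Their order, the gene annotation, any filter and the strand setting have not been given in the sources used here.

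From the estimated counts CPM was computed on the library totals, with a pseudocount of 1 on the log2 scale. Intervals of ratios are exact 95% Clopper-Pearson intervals of counts rounded to whole numbers, and they cover counting error only. The floor of 3 counts for a count of 0 did not enter these intervals. No p-value was computed. Symbols (16183 of 16399 IDs) and biotypes came from RefSeq, and positions, longest transcripts, GC content and coding sequences from GENCODE release 29. C2H2 fingers were counted in the translated longest coding sequence as C and C with 2 to 4 residues between, 12 residues, H and H with 3 to 5 between. KRAB A and SCAN motifs were searched by pattern, so diverged boxes are missed. The trend was an additive lowess on log2 length and GC with a span of 0.3, over the 98.8% of expressed genes with a record. TMM factors from edgeR 4.0.16 and size factors from DESeq2 1.42.0 were used for scaling alternatives. The calculation was tested on simulated data.

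Members, gene lists and the rule for named genes were chosen with earlier results of these data known. The rule takes PKP2, the 8 members highest and 8 lowest in difference at a mean of 5 CPM or more, the 6 most abundant, any past 1.5-fold, the retroelement list, ZNF274, ZNF473, the first and last by position and 5 partner genes. ZNF573, ZNF575, EPCAM, CD14 and COL1A1 were named after their values were seen. So were the 7 members given as the rest of those with an interval off 1.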

Additional observations from a re-analysis of the deposited data

How the results depend on the processing

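Over the alternatives listed, 75 of the 88 values that answer a comparison stayed within the binomial interval of the ratio or median, or within 1.5 times for a count, and so did 234 of the 242 values of clusters and named genes. The count of members at least 1.5-fold higher, 1 in the text, was 5 with a pseudocount of 0.1 and by the plain CPM ratio, and 0 with a pseudocount of 5, without fractional counts, at a 2-fold threshold, and without members that share sequence or exons. The count at least 1.5-fold lower was 5 instead of 0 with a pseudocount of 0.1 and by the plain CPM ratio. Without fractional counts 7 instead of 13 members had an interval below 1, and without members that share sequence or exons 3, with a summed ratio of 1.03 instead of 0.996. The KRAB members' median was -0.0088 in the text and 0.054 once the trend on length and GC was taken out. The family's median was -0.00014 in the text and 0.063 relative to genes in the same bin of length and GC content, an alternative chosen after seeing the data, as were the plain ratio and leaving out members that share sequence. Scaling by TMM or by size factors left the medians of the family and of the clusters within 0.01 of their values, and size factors put the partner list at -0.0084 instead of 0.0018. The cause of these changes was not tested, apart from the smaller number of members where some were left out. At a median of 6.51 CPM, single members could show only large differences. No paired analysis was possible because each group holds 1 library, and no library could be left out.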
